A study of Mus musculus with 2 samples.

Results

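The mouse genes named Zfp with a number from 600 to 999 mostly encode C2H2 zinc finger proteins, one of the largest groups of DNA-binding proteins in mammals. They were taken as all probe sets whose single platform gene symbol was Zfp followed by 3 digits in that range and nothing after. Where a gene had several probe sets, the one with the highest mean over both samples was kept. This gave 155 genes of the 22180 genes with a probe set of their own, measured by 167 probe sets. The rule used names and mean levels, and no difference between samples. The number limit is one of naming only. Zfp599, the highest number just outside it, read 7.08 and 6.36 in the EWS-OCT4A-GFP and the GFP line, and Zfp600, the lowest inside it, read 6.09 and 4.04. Zfp995, the highest number measured, read 4.26 and 3.88. The RefSeq gene table of assembly GRCm38.p6 holds 173 symbols in the range, of which 18 lacked an own probe set and were not analysed here.

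The measurements came from 2 stable lines of the Niwa mouse embryonic stem cell line, with 1 sample each. The fusion line expressed EWS-OCT4A-GFP, which joins the EWS protein to the pluripotency isoform of OCT4 and to green fluorescent protein, and the control line expressed GFP. The culture medium contained LIF. Doxycycline at 1 µg/ml was added to both lines to turn down their own OCT-4, so the comparison sets the fusion against GFP while endogenous OCT-4 is lowered in both. The sources used here do not say whether each line is a clone or a pool, or how long doxycycline was given. The submitters describe duplicate experiments, but each line has 1 column of values, so no difference has a replicate check and no p-value is given.

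C2H2 zinc finger proteins bind DNA through arrays of short zinc-binding loops, each of which contacts a few bases. Many of them carry a KRAB domain, which recruits TRIM28 (KAP1) and, through it, the histone methyltransferase SETDB1 and HP1 proteins, and so silences the bound site. In embryonic stem cells these repressors are known for silencing endogenous retroviruses and other transposable elements, and for guarding imprinted regions. Their genes arose by repeated duplication and often stand side by side in clusters, so neighbours can be very alike in sequence.

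Values are RMA log2 values, and a difference is the value of the fusion line (EWS-OCT4A-GFP) less that of the control line (GFP), so that 1 is 2-fold. Where a pair of values is given, the fusion line comes first. Pou5f1, which encodes OCT4, read 5.37 and 5.24 in the fusion and the control line. The lines differed widely in cell state markers. All 20 listed pluripotent cell markers had a difference above 0, with a median of 1.71, and their median level was 8.65 in the fusion line and 5.73 in the control line. All 18 trophectoderm markers had a difference below 0, with a median of -3.54, and a median level of 4.39 against 8.09. The 12 markers of fibroblast feeder cells had a median difference of 0.01 but ran from -4.04 to 2.15. Postn was 16.4-fold and Pdgfra 2.22-fold lower in the fusion line, and Vim was 4.43-fold higher. An RMA value does not show whether a gene is absent. Under the floor of 4.10 set below lay both values of 1 of the 20 pluripotent cell markers. The same held for 1 of the 18 trophectoderm markers and 3 of the 12 feeder markers. The part of cell state in the differences below was not tested, and in bulk samples fewer cells of a type and less RNA per cell cannot be told apart.

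The zinc finger genes were shifted towards higher values in the fusion line. Of the 155, 104 had a difference above 0, 48 had one below 0 and 3 had equal values, whereas 49.6% of all genes had a difference above 0. Their median difference was 0.33, with an interquartile range from -0.11 to 0.85, against a median of 0 over all genes (interquartile range from -0.31 to 0.34). Of the 155, 31 were higher by 2-fold or more, where the background over all genes was 6.02%. In the lower direction there were 5, where the background was 7.49%. The array values carry no detection call, so a floor was also set at 4.10, the median of all values, which the higher value of the pair had to reach. Of the 155 genes 135 passed it, 13 of them through the fusion line alone and 7 through the control line alone. Those at least 2-fold different at this floor were 30 higher and 5 lower, with a background of 9.31% and 11.9% of the 13516 genes that passed. With the lower value of a pair raised to the floor, 26 of the 30 were still at least 2-fold higher, all but Zfp763, Zfp827, Zfp850 and Zfp941.

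**Figure D1:**
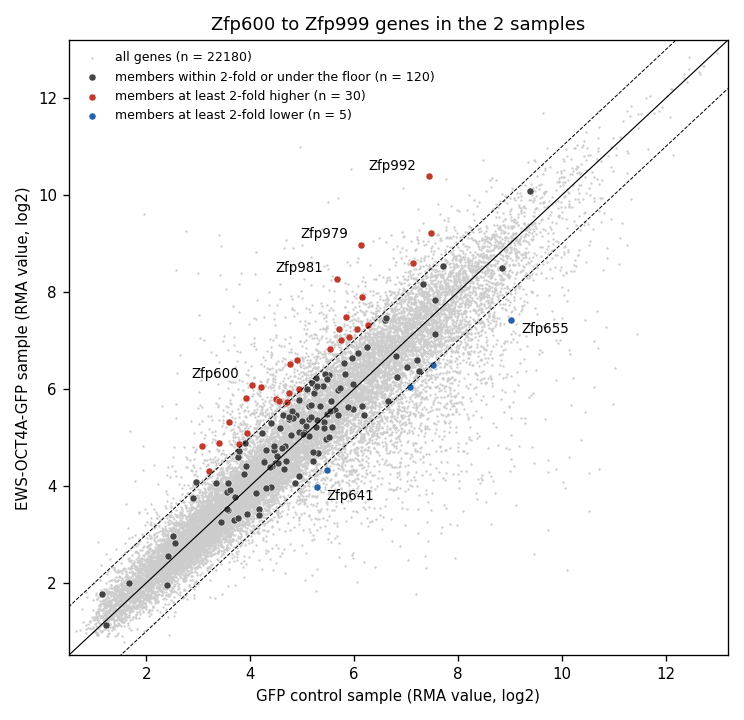
Each point is a gene, with its RMA log2 value in the control line on the x axis and in the fusion line on the y axis. Grey points are all 22180 genes, the solid line marks equal values and dashed lines mark 2-fold, with 30 members in red above and 5 in blue below.

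A shift of like size was present in the genes most like them by name. The 181 measured genes from Zfp1 to Zfp599 had a median difference of 0.30, with 122 above 0, 29 higher and 4 lower by 2-fold or more. No test sets these groups apart. Within the range, the share of genes above 0 was larger at higher numbers. Zfp600 to Zfp699 had a median of 0.03 with 21 of 42 above 0, Zfp700 to Zfp799 had 0.27 with 27 of 39, Zfp800 to Zfp899 had 0.49 with 19 of 27, and Zfp900 to Zfp999 had 0.77 with 37 of 47. This split was made after the values were seen and was not tested. Of the 9 members of the chromosome 4 stretch described below, each with a difference above 0, all but Zfp600 fall in Zfp900 to Zfp999.

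**Figure D2:**
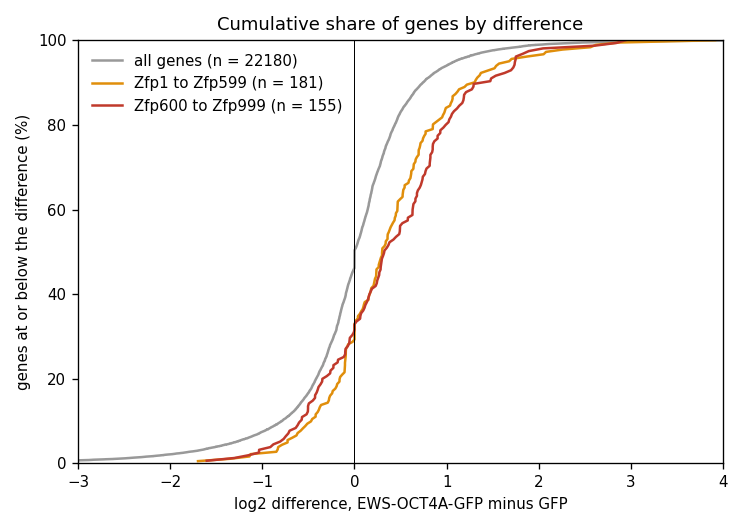
The curves give the percentage of genes (y axis) at or below each log2 difference (x axis) for all genes, Zfp1 to Zfp599 and Zfp600 to Zfp999. Both zinc finger curves lie to the right of the curve for all genes over most of the range, with medians of 0.30 and 0.33 against 0.

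The largest differences belonged to a cluster of genes on chromosome 4. Zfp992 (probe set 17421432) read 10.39 in the fusion line and 7.44 in the control line, which is 7.69-fold. Zfp979 (probe set 17432749) read 8.98 and 6.14, or 7.18-fold. Its second probe set, also above the floor, read 6.80 and 5.54, a difference of 1.27 in place of 2.84, and the third read 1.90 and 1.56, so the probe sets of this gene disagree. Zfp981 (probe set 17421437) read 8.28 and 5.67, or 6.10-fold. Zfp600 (probe set 17421413) read 6.09 and 4.04, or 4.13-fold. Its control value lay just under the floor, and with that value at the floor the fold was 3.98. By the probe sets kept, these 4 were the members at least 4-fold higher, a size reached by 1.77% of all genes at the floor.

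Zfp982 read 6.04 in the fusion line and 4.21 in the control line, Zfp980 read 9.22 and 7.48, and Zfp985 read 5.32 and 3.59. With the control value of Zfp985 at the floor, its fold fell from 3.30 to 2.33. Zfp984 read 7.32 and 6.28, a difference of 1.05, and Zfp933 read 5.93 and 5.22, a difference of 0.71. In the RefSeq order of protein-coding genes these 9 stand within a stretch of 16 genes. Each of the 9 was higher in the fusion line, where 49.6% of all genes had a difference above 0. By at least 2-fold 8 of them were higher, against 9.31% of all genes at the floor. Their median difference was 1.82. The stretch was singled out after the values were seen. The stretch holds 2 further measured genes, which are also zinc finger genes. Rex2 read 7.80 and 6.09, and Zfp534 read 7.37 and 5.11. The rest of the stretch, Zfp987, Zfp993, Zfp978, Zfp991 and Zfp988, had no value of their own here. Of the 17 measured genes among the 10 on either side of the stretch, 1 was higher and 5 were lower by 2-fold or more, and the median difference was -0.16. The higher one was Gm13212, which read 4.21 and 2.57 and so passed the floor of 4.10 through the fusion line alone. Others have deleted a cluster of KRAB zinc finger genes on distal chromosome 4 in mouse stem cells to study the silencing of retrotransposons. Copies in such a cluster are alike, and whether the probe sets tell them apart was not tested, so which member a value belongs to is uncertain.

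**Figure D3:**
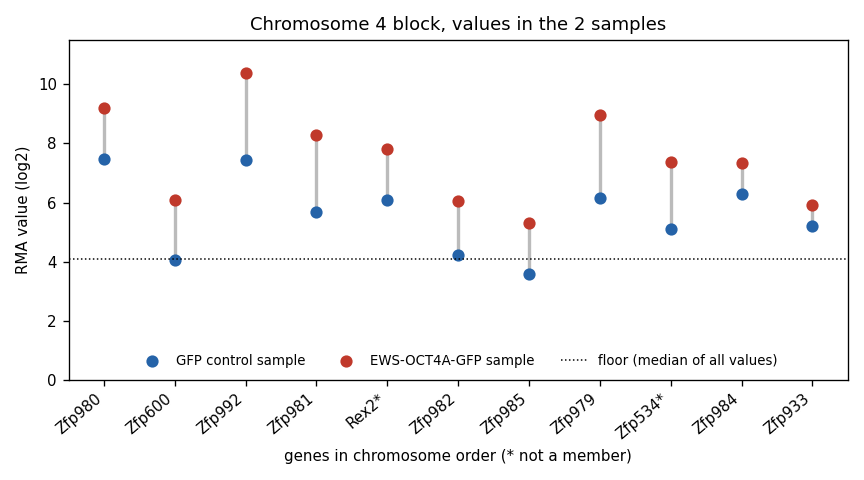
RMA log2 values (y axis) of the 11 measured genes of the chromosome 4 stretch in gene order (x axis), with the control line (GFP) in blue, the fusion line (EWS-OCT4A-GFP) in red and the floor of 4.10 dotted. The red point lies above the blue one for each gene, from 0.71 for Zfp933 to 2.94 for Zfp992.

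The promoters of these neighbours are shown because they share runs of sequence. RefSeq promoter windows (GRCm38.p6, 250 bases before to 50 after the annotated start) were on hand for 8 of the 9. In 7 of them the same 2 runs of letters were found. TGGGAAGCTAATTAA was the longest run held by 7 of the 8, and TATTGGGCGGGT, the only other shared run of at least 12 letters, joins an inverted CCAAT box (ATTGG) to a GC box (GGGCGG), with 2 letters shared. That minimum length was chosen after the shared runs of these promoters had been seen, and shorter shared runs are not described. Both runs were derived from these promoters, so their larger share among the members than elsewhere follows in part from that choice. The stretch around them follows for each gene, 5′ to 3′ on the gene's strand, with the runs in capitals.
Zfp980, chr4:145670551-145670659, plus strand: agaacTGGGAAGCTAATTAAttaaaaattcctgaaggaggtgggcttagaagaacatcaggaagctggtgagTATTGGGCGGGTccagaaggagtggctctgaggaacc
Zfp600, chr4:146156687-146156795, plus strand: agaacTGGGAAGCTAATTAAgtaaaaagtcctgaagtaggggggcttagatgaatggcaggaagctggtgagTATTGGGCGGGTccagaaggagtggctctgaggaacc
Zfp981, chr4:146514751-146514860, plus strand: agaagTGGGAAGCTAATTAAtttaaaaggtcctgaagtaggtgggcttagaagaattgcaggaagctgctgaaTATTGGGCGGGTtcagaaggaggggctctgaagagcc
Zfp982, chr4:147492261-147492369, plus strand: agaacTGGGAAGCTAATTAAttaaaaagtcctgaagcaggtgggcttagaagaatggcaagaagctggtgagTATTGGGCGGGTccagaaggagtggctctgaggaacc
Zfp985, chr4:147553136-147553244, plus strand: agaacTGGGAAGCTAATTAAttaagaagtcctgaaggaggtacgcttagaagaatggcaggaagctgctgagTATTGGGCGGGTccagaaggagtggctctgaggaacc
Zfp979, chr4:147642546-147642654, minus strand: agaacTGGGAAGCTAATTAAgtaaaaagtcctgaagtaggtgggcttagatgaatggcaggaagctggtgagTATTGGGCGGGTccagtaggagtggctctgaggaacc
Zfp984, chr4:147809839-147809947, minus strand: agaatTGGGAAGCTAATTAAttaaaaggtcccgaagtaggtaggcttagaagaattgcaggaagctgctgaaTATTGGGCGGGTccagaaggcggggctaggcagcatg
TATTGGGCGGGT begins 68 to 96 bases before the annotated start, and 52 or 53 bases separate the runs. Over 21 pairs of the whole windows, identity ran from 74.3% (Zfp980 and Zfp984) to 98.3% (Zfp600 and Zfp979), with a median of 83.5%, so the 7 promoters are not independent of each other. Searched on both strands, TATTGGGCGGGT was found in 12 of all 32851 promoter windows (0.0365%). These included 9 of the 134 members with a window (6.72%), the other 2 being Zfp947 (4.41 in each line) and Zfp994 (6.21 and 5.49), both on chromosome 17. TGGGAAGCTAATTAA was likewise in 12 windows, those of the 7 members and of Rex2, Zfp534, Zfp987, Zfp988 and Gm13212. The window of Zfp933 held neither run. Zfp992 had no window on hand and was not examined. A CCAAT box alone, in either orientation (ATTGG or CCAAT), was in the windows of 80 of the 134 members (59.7%), against 41.1% of all genes with a window. The GC box alone, also on either strand, was in 66 (49.3%) against 38.2%. The member windows had a median of 12 CpG dinucleotides against 7 over all windows, whereas those of the chromosome 4 genes had 5. A match is a description of letters and does not show that a factor binds.

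OCT4 recognises the octamer ATGCAAAT. It was found, on either strand, in the windows of 2 of the 134 members (1.49%), Zfp791 and Zfp964, against 1.97% of all genes with a window. Both genes lay under the floor in both samples, with differences of -0.52 and 0.27. Among the members at least 2-fold different that had a window, none held the octamer in it, which says nothing about sites outside these windows. Zfp992, the most different member, had no window. With a share of 1.97% over all genes, none among so few is not a result about them.

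Position was examined for the other members too. With at most 5 other protein-coding genes allowed between neighbours, 75 members fell into 15 blocks of at least 3. The genes in blocks had a median difference of 0.74, with 63 of 75 above 0 and 24 at least 2-fold higher, and the 80 outside them a median of 0.11, with 41 above 0 and 7 at least 2-fold higher. Over all genes with no floor, 49.6% were above 0 and 6.02% at least 2-fold higher. The median was above 0 in 13 of the 15 blocks, and in 9 of them each member had a difference above 0. Blocks were defined after the values were seen. Without the 9 genes of the chromosome 4 stretch, the median of the remaining 146 members was 0.29. The floor was passed by 126 of these 146. Among those 126, 22 (17.5%) read higher by 2-fold or more, against 9.31% of all genes at the floor.

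Chromosome 17 carried 22 members, with a median of 0.82 and 18 above 0. One of its blocks ran from Zfp871 to Zfp763, and its 6 members differed by 0.82 to 1.48. In it, Zfp799 read 5.76 in the fusion line and 4.55 in the control line, and Zfp763 read 4.88 and 3.40. The second probe set of Zfp799 read 3.80 and 3.74, both under the floor, so the probe sets of this gene disagree. Zfp871 read 7.47 and 6.62, Zfp870 read 5.76 and 4.95, and Zfp952 read 4.71 and 3.78. Zfp811 read 4.09 and 2.95, both under the floor. The control values of Zfp763 and Zfp952 also lay under it, and with those at the floor the differences were 0.78 and 0.61. The larger block, from Zfp677 to Zfp945, held 14 members and was mixed. Zfp942 (7.02 and 5.75), Zfp760 (7.25 and 6.06), Zfp945 (7.08 and 5.90) and Zfp946 (5.92 and 4.74) were at least 2-fold higher. Zfp983 and Zfp947 had equal values in both samples, while Zfp948 read 6.37 and 7.25, a difference of -0.88.

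Blocks on other chromosomes ran in both directions. On chromosome 7, Zfp819 (5.81 and 3.92) and Zfp719 (5.71 and 4.69) lie next to each other and were both at least 2-fold higher, and Zfp936 in another block read 8.61 and 7.14. On chromosome 8, Zfp961 read 7.24 and 5.70, and its neighbours Zfp709, Zfp882 and Zfp617 differed by 0.66, 0.85 and 0.77. Elsewhere on chromosome 8, Zfp930 read 6.59 and 4.90, whereas Zfp869 and Zfp963 of the same block differed by 0.02 and 0.18. On chromosome 7 the block from Zfp954 to Zfp772 had a median of -0.50. Its Zfp954 and Zfp772 differed by -0.50 each, within 2-fold, and Zfp773, under the floor, by 0.06. Zfp418, a measured gene of that stretch that is no member, differed by 0.85. In the block from Zfp771 to Zfp689, Zfp768 (4.34 and 5.49) was lower by at least 2-fold, while Zfp747 differed by -0.05 and Zfp764 by 0.58.

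The smaller blocks followed no single size. On chromosome 10, Zfp781, Zfp873 and Zfp938 differed by 1.29, 0.93 and 0.78, so that its 3 members lay close together. On chromosome 2, Zfp931 and Zfp971 differed by 1.75 and 0.90 but Zfp972 by 0.12. On chromosome 13, Zfp808 differed by 1.63 beside Zfp935 with -0.60 and Zfp934 with 0.06. Neighbours can therefore read in opposite directions. On chromosome 6, Zfp956, Zfp777 and Zfp746 stand in a row and differed by 0.35, 0 and 0.26. On chromosome 9, Zfp809 and Zfp653 differed by 0.29 each, Zfp810 by -0.35 and Zfp872 by -0.40.

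**Figure D4:**
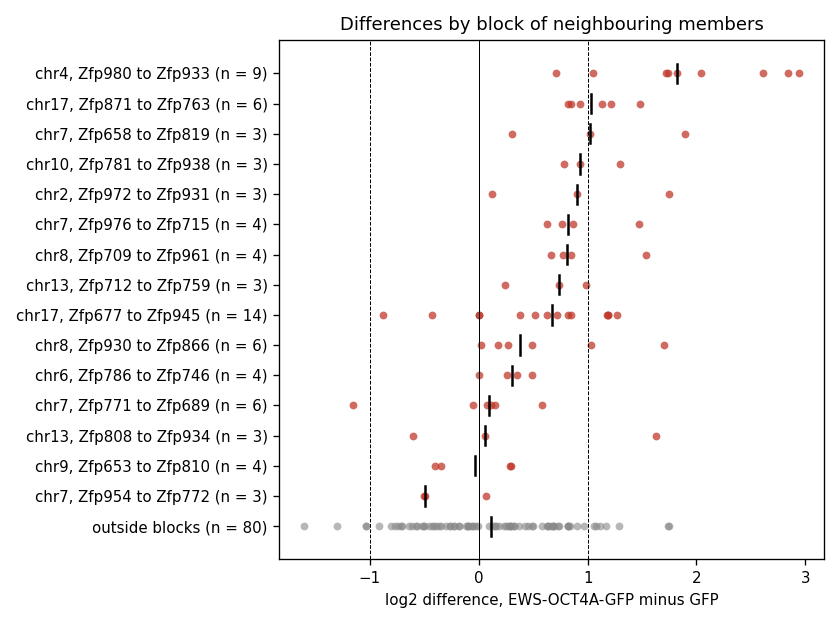
Each point is a member, placed by its log2 difference (x axis) in the row of its block of neighbouring members (y axis, ordered by median), with members outside blocks in grey at the bottom. Black bars are medians, from -0.50 to 1.82 over the blocks and 0.11 outside them, and dashed lines mark 2-fold.

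Beyond chromosome 4, Zfp819, a KRAB zinc finger gene studied in pluripotent cells, was 3.71-fold higher. Its control value was under the floor, and with that value at the floor the fold was 3.28, less than the 3.36 of Zfp931 and the 3.33 of Zfp825. Zfp827, whose human counterpart brings the NuRD complex to telomeres, read 4.82 in the fusion line and 3.07 in the control line. With its control value, also under the floor, raised to the floor, the fold fell from 3.37 to 1.65. Zfp931 read 6.52 and 4.77, and Zfp825 read 7.89 and 6.16. Zfp808 read 7.48 and 5.85, and Zfp781 read 6.84 and 5.54. Of the 12 members with the largest positive differences 7 belonged to the chromosome 4 stretch. The remaining 18 of the 30 differed by 1.02 to 1.63. Those whose values are not given above were Zfp619 (5.79 and 4.50), Zfp623 (6.01 and 4.95), Zfp866 (5.74 and 4.71), Zfp974 (5.10 and 3.93), Zfp941 (4.87 and 3.79) and Zfp850 (4.31 and 3.20). The control values of Zfp974, Zfp941 and Zfp850 lay under the floor.

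The 5 members at least 2-fold lower stood on 5 different chromosomes. Zfp655, known in human as a partner of the VAV signalling protein, read 7.43 in the fusion line and 9.03 in the control line, or 3.04-fold lower. Zfp641 read 3.98 and 5.28, Zfp768 read 4.34 and 5.49, and Zfp800 read 6.05 and 7.08. Zfp609, which works with the cohesin loader and the Integrator complex, read 6.49 and 7.52, or 2.05-fold lower. Its paralog Zfp608 read 3.52 and 4.16. Just short of 2-fold were Zfp687 (5.75 and 6.66), a member of a chromatin complex with ZMYND8, and Zfp948.

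**Figure D5:**
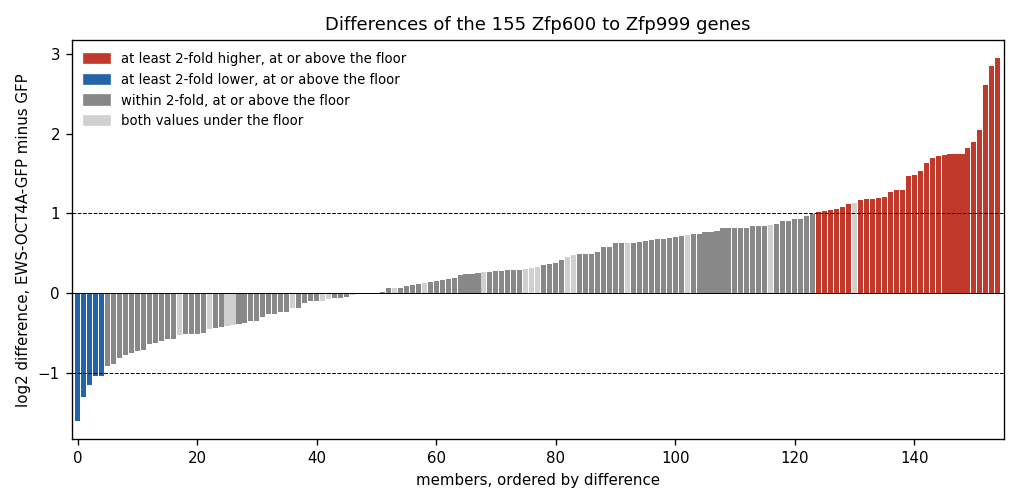
Bars give the log2 difference (y axis) of each of the 155 members in order of size (x axis), in red and blue where at least 2-fold at the floor, dark grey where smaller, and light grey where both values lay under the floor. The 5 blue bars reach -1.60 and the 30 red bars reach 2.94.

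Of the 21 measured members on a list of known roles, 18 passed the floor. Of those 18, 3 were higher by 2-fold or more (Zfp819, Zfp827 and Zfp961) and 2 were lower (Zfp609 and Zfp655), against 9.31% and 11.9% of all genes at the floor. Named next are genes on that list taken, from general knowledge, as KRAB zinc finger genes or as acting on retroviruses or retrotransposons. Some were at least 2-fold higher and the others within 2-fold. No protein sequences were used to sort them, so listed genes with a KRAB domain, lower ones among them, may be left out. Zfp819 was 3.71-fold and Zfp961 was 2.89-fold higher. Zfp809, which recognises the primer binding site of murine retroviruses and silences proviruses in stem cells, read 7.85 in the fusion line and 7.56 in the control line, a difference of 0.29. Zfp638, which recruits the HUSH complex to unintegrated retroviral DNA, read 8.16 and 7.34. Zfp708, which binds a class of retrotransposon in the germ line, read 4.88 and 3.89. Zfp932, another repressor of endogenous retroviruses, lay under the floor with 3.50 and 3.58. Zfp809, Zfp638 and Zfp708 read higher in the fusion line by 0.29 to 0.99, within 2-fold.

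Members with other known roles were mostly within 2-fold. Zfp706, which promotes the exit of stem cells from pluripotency, read 8.49 and 8.86, a difference of -0.37, while its second probe set differed by 0.25. Zfp830, needed for survival of the early embryo, read 5.75 and 5.56. Zfp622, a homologue of a yeast factor of the large ribosomal subunit, read 7.13 and 7.56. Zfp652, a corepressor partner, read 6.87 and 6.24, and Zfp704 read 7.43 and 6.59. Zfp703, a transcriptional cofactor studied in breast cancer, read 3.39 and 4.16. Zfp746, which represses the gene of PGC-1α, differed by 0.26, Zfp618, a partner of UHRF2, by 0.33 and the X-linked Zfp711 by 0.13. Zfp750, a regulator of epidermal differentiation, read 5.22 and 5.27. Of the 22 genes listed for a known role, Zfp644 was not analysed here.

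A list of partners through which KRAB zinc finger proteins act was drawn from general knowledge, and 38 of its 44 entries were measured. The list also holds Zfp57, itself a KRAB zinc finger gene, and Zfp42, a pluripotency marker. At the floor, 9 of the 38 were higher and 3 were lower by 2-fold or more, against 9.31% and 11.9% of all genes at the floor. The median difference was 0.37, and with the mean of the probe sets of each gene it was 0.23. Without Zfp57 and Zfp42, a choice made after the values were seen, 7 of 36 were higher and 3 lower, and the median was 0.24. Trim28, the corepressor itself, read 10.31 in the fusion line and 8.74 in the control line, or 2.98-fold higher. The HP1 genes Cbx1 (8.37 and 7.13), Cbx3 (10.14 and 9.04) and Cbx5 (8.71 and 7.51) were higher by at least 2-fold. Setdb1 read 7.45 and 6.97, a difference of 0.48. Atrx, a chromatin remodeller, read 8.96 and 6.83, and Dnmt3l, a cofactor of the de novo DNA methyltransferases, read 6.39 and 4.90. The largest differences on the list were those of Zfp57, the guardian of imprints, with 9.29 and 5.38, and of Zfp42 (REX1), with 10.33 and 7.77. Both also belong to the genes from Zfp1 to Zfp599. Lower by at least 2-fold were Mta3 (7.45 and 9.04) and Rbbp7 (9.51 and 10.95) of the NuRD complex and the SUMO ligase gene Pias1 (7.65 and 9.24).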

How the data were processed

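The authors deposited 1 table of log2 values for 33793 probe sets and 2 samples. Per the submitters' processing notes it was made with Affymetrix Expression Console 1.1 and RMA, which corrects background, quantile-normalizes and summarises probes. The log base is not stated in the table and was taken as 2, since values run from 0.618 to 13.0. RMA hides a shift common to most transcripts and compresses differences of weak genes, and 1 array value per line limits precision. The sources used here do not say whether a column is a single array.

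Platform annotation gave 1 symbol for 23521 probe sets, several for 1814 and none for 8458. Of the members, 154 matched RefSeq (GRCm38.p6) by gene ID. The members, the lists and the tests were chosen with earlier results of these data known. Genes were named where at least 2-fold different at the floor, in full for the 12 most different in each direction, where a role was listed, where 3 or more neighbour each other, at the edges of the number range, and, for cofactors, Trim28, Setdb1 and 6 others with the largest difference. Cbx1, Cbx3, Cbx5, Rbbp7, Postn, Pdgfra, Vim, Rex2, Zfp534, Gm13212 and neighbours named for contrast were chosen after their values were seen. A planned split by the KRAB motif in protein sequences was not run, since no protein sequences were used here. Python 3.11.15, numpy 2.4.6, pandas 2.3.3, statsmodels 0.14.6 and Biopython 1.88 were used.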

Additional observations from a re-analysis of the deposited data

How the results depend on the processing

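No paired analysis was possible because there was 1 sample per line, and no replicate could be left out. At the floor 30 members were higher and 5 lower by 2-fold or more. A 1.5-fold threshold gave 61 higher and 15 lower members, and a 3-fold threshold gave 13 and 1. Raising the floor to 6 left 18 higher and 3 lower members, and at the 75th percentile 20 were higher and 3 lower. The floor at 6 left 873 higher and 1246 lower of all genes, and the 75th percentile left 926 and 1314. How many genes passed these higher floors is not given here, so these counts have no background share beside them. Over all genes, 1259 higher and 1608 lower, the 1.5-fold threshold gave 2708 and 2784 and the 3-fold threshold 464 and 786. These moves follow from the thresholds. Of the 30 higher members, median centring kept 29, quantile normalization 30 and loess centring (span 0.3) 26, and each kept the 5 lower ones. Loess centring lost Zfp623, Zfp719, Zfp866 and Zfp984. The median difference of the members ran from 0.29 to 0.42 over the alternatives, and that of the chromosome 4 genes, whose alternatives were chosen after seeing the data, from 1.74 to 1.83. For the cofactor list, the mean of probe sets gave 0.23, against 0.37, and the cause was not tested. Leaving out Zfp57 and Zfp42 gave 0.24, with 2 fewer genes. With strictly adjacent genes, 37 members formed 10 blocks. The planned split by KRAB motif was not run. Signal over background is unknown, which limits what can be said near the floor.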

Other observations

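The promoter runs shared by the chromosome 4 genes were also held by 3 measured genes that are no members, each higher in the fusion line. Of these, Gm13212 (4.21 and 2.57) passed the floor of 4.10 only just and through the fusion line alone, so the size of its difference is uncertain. Rex2 and Zfp534 lie within the same stretch and Gm13212 is among its flanking genes, so they are not separate from the cluster. The measured holders off chromosome 4, Zfp947 and Zfp994, held only the run with the GC box. They differed by 0 and 0.72, and neither reached 2-fold. Rex2 and Gm13212 held both runs and differed by 1.71 and 1.64, and Zfp534 held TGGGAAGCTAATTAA and differed by 2.26.

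Of the members, 10 had more than 1 probe set. The 3 probe sets of Zfp640 differed by 0.69, 0.56 and 0.77. Probe sets with several symbols named a gene of the number range in 29 cases, and 10 symbols of the range were on such probe sets only.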
